A study of Mus musculus with 69 samples.

Results

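Mosaic gastruloids were grown from WT-mCherry cells mixed either with WT-emiRFP cells (WT+WT) or with p53KO-emiRFP cells (WT+p53KO), and the WT-mCherry cells were sorted out of both at 120 h and sequenced. The comparison described here is between these sorted WT-mCherry populations, 3 libraries beside p53KO cells against 3 libraries beside WT cells, which are 6 of the 69 bulk RNA sequencing libraries of the study. The libraries were chosen by their labels alone, and libraries with the same replicate number were taken as a pair. All 4 populations of 120 h, the 6 WT-mCherry libraries plus 3 of p53KO-emiRFP and 3 of WT-emiRFP cells, entered 1 fit.

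Every line derives from E14Tg2A mouse embryonic stem cells and is 1 clone. WT-mCherry carries a piggyBac H2B-mCherry reporter under the EF1α promoter, and WT-emiRFP an H2B-emiRFP670 reporter under CAG. p53KO-emiRFP is a daughter clone of WT-emiRFP with a homozygous frameshift in Trp53, so the mCherry cells of both groups are the same unmutated clone. The neighbours differ in genotype and also in number at the start, since WT+WT gastruloids were seeded with 150 mCherry and 150 emiRFP cells and WT+p53KO gastruloids with 150 mCherry and 25 emiRFP cells. The genotype of the neighbours and their seeded number cannot be told apart here. Both kinds of gastruloid received the same pulse of CHIR99021, a GSK3 inhibitor that activates Wnt signalling, from 48 to 72 h. Many gastruloids were pooled for each sort, and the replicates come from 3 separate experiments with the same clones. The main fit takes out differences shared by all populations of a replicate. Its p-values measure the spread that is left, estimated over all 4 populations and with information shared across genes.

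Gastruloids are aggregates of stem cells that break symmetry, elongate and form the germ layers without extraembryonic tissue. At their posterior end, cells that resemble neuromesodermal progenitors, kept by Wnt and FGF signals, give rise to presomitic mesoderm, where Tbx6 and Msgn1 act and the Notch oscillator with Hes7 and Lfng runs before segmentation begins. In cell competition, cells of lower fitness are lost where fitter cells are their neighbours, and the tumour suppressor p53 is known to act in this sensing through its transcriptional targets. Cells without p53 are known to outcompete WT cells in several embryonic settings.

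Trp53 itself checked the labels. Its normalised read count was 1954, 2014 and 1706 in the p53KO-emiRFP replicates 1 to 3, against 16814, 19153 and 17871 in WT-emiRFP cells. Among the WT-mCherry libraries it was 14177, 16205 and 13914 beside p53KO cells and 16573, 18378 and 17122 beside WT cells, a log2 fold change of -0.24 ± 0.04 (SE, adjusted p = 0.0016 by edgeR's quasi-likelihood test, 0.094 without the replicate block). After subtraction of RNA from emiRFP cells, described next, it was -0.16 (adjusted p = 0.019) by the marker H2bc14 and -0.03 (adjusted p = 0.81) by H2bc21. The mutant line was therefore low and all 6 WT-mCherry libraries were high. Total counts at 120 h were 56303563 to 64019780 beside p53KO cells, 51564426 to 61890032 beside WT cells and 48731535 to 54693751 in the emiRFP populations.

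The WT-mCherry libraries also contained RNA of the emiRFP clones, and more of it beside p53KO cells. H2bc14, H2bc7 and H2bc21, histone H2B genes that were high in the emiRFP clones, served as the markers. Their reads may include reads of the H2B reporter or of near-identical histone genes. H2bc14 stood at 454, 214 and 398 beside p53KO cells and at 125, 112 and 78.3 beside WT cells, and all 3 markers were higher beside p53KO cells. Taken against the emiRFP cells of the same gastruloids, H2bc14 gave an emiRFP share of 7.35%, 2.91% and 6.55% of the RNA beside p53KO cells and of 1.99%, 1.54% and 1.06% beside WT cells. H2bc7 gave 6.97%, 2.61% and 5.73% against 1.66%, 1.23% and 0.585%. H2bc21 gave larger shares, 10.6%, 8.25% and 25.0% against 5.02%, 2.90% and 5.41%. The shares do not overlap between the groups with any of the 3 markers, so the results are also given after this share of the emiRFP profile was subtracted, with H2bc14 and with H2bc21. Grb10, an imprinted adaptor of growth factor receptors, was a gene with far more RNA in the emiRFP clones. It was 3446, 1675 and 3579 beside p53KO cells, 1586, 1384 and 1239.5 beside WT cells and 40172, 36460.5 and 42374 in p53KO-emiRFP cells, and its log2 fold change of 1.00 became -0.74 after the H2bc14 subtraction. If all Grb10 RNA of the 3 libraries beside p53KO cells came from emiRFP cells like those sorted from the same gastruloids, the emiRFP share would be 8.58%, 4.59% and 8.45%. The H2bc21 share is above this ceiling in each of the 3 libraries and the H2bc14 share below it, so under that assumption the values after the H2bc21 subtraction remove too much emiRFP RNA.

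**Figure D1:**
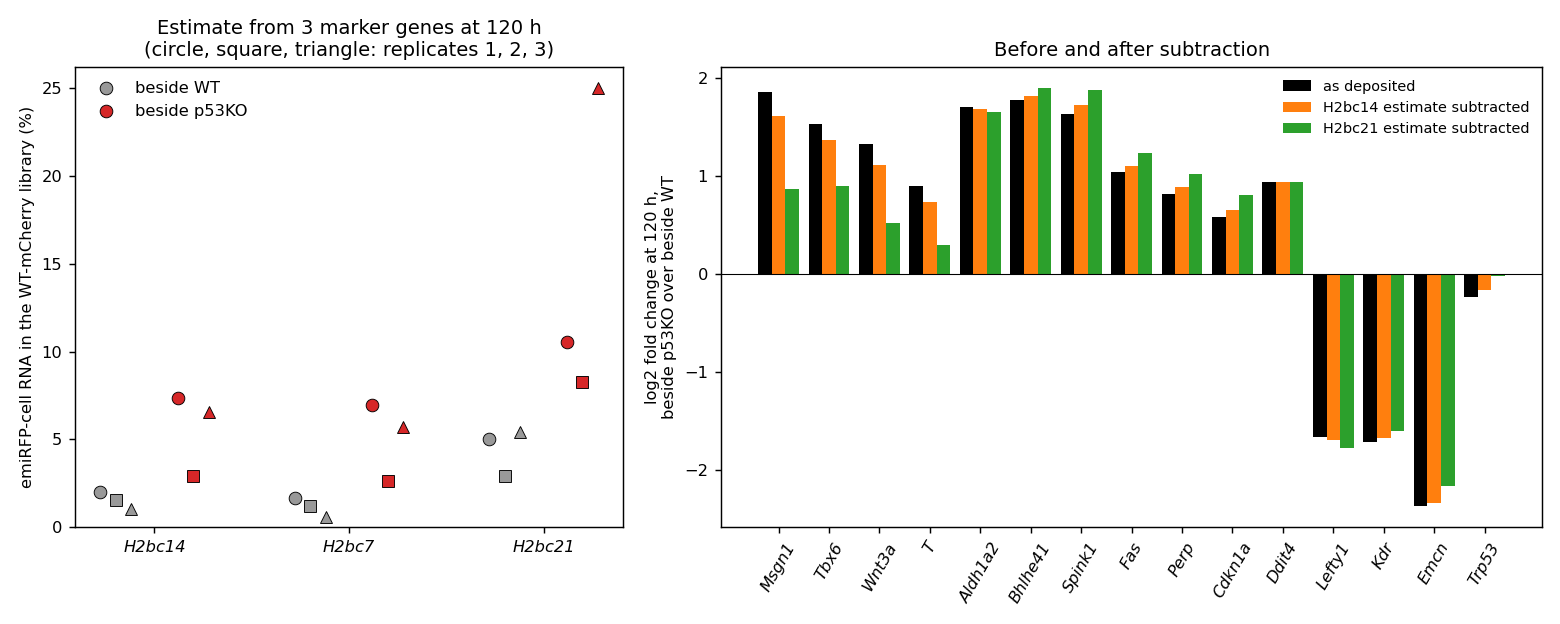
Left, the percent of RNA from emiRFP cells in each of the 6 WT-mCherry libraries of 120 h (y axis), by the marker used for the estimate. Right, the log2 fold change beside p53KO over beside WT cells (y axis) of 15 genes as deposited, after subtraction with H2bc14 and after subtraction with H2bc21. The H2bc14 share is 2.91% to 7.35% beside p53KO and 1.06% to 1.99% beside WT cells, and the change of Msgn1 shrinks from 1.86 to 0.87 with H2bc21 while that of Aldh1a2 goes from 1.70 to 1.65.

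Replicate 2 stood apart in immediate-early genes, which respond to stimulation or handling within minutes. Fosb was 10.3, 1447 and 4.08 beside WT cells and 26.1, 227 and 12.6 beside p53KO cells, so in both groups replicate 2 was the highest. Its log2 fold change was -2.05 (adjusted p = 0.013) with all replicates and 1.42 (adjusted p = 0.04) without replicate 2, and no direction is given for it. The part of emiRFP RNA and of this replicate in other results was not tested beyond the values given with and without them.

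For 3 gene lists, the 2 called members with the largest change and a promoter entry are shown first with their upstream sequence. The 250 bases before the RefSeq start of each gene are printed 5′ to 3′ on the gene's strand (GRCm38.p6), for the presomitic regulators Msgn1 (chr12:11208949-11209198, minus strand) and Tbx6 (chr7:126781233-126781482, plus strand), the endothelial genes Emcn (chr3:137340828-137341077, plus strand) and Kdr (chr5:75978456-75978705, minus strand) and the p53 targets Fas (chr19:34290409-34290658, plus strand) and Cdkn1a (chr17:29090729-29090978, plus strand, the first of 2 starts). Capitals mark matches on either strand to the TCF/LEF core CTTTGA, the RBPJ core GTGGGAA and the decamer of the p53 response element, and the T-box element AGGTGT and the GATA core AGATAA were searched as well.
Msgn1: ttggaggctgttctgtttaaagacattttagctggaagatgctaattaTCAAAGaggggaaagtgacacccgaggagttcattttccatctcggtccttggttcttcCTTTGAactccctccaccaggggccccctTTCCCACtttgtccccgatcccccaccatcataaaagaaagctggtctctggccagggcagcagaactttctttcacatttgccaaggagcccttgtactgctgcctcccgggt
Tbx6: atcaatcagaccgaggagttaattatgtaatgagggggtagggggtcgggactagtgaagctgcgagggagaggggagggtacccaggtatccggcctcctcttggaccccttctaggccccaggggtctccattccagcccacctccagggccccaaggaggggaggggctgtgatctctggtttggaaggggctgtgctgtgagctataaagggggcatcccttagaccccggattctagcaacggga
Emcn: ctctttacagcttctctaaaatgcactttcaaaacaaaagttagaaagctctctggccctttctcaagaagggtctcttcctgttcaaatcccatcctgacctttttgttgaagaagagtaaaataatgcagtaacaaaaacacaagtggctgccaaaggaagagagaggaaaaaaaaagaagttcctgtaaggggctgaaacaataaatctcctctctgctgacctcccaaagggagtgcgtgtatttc
Kdr: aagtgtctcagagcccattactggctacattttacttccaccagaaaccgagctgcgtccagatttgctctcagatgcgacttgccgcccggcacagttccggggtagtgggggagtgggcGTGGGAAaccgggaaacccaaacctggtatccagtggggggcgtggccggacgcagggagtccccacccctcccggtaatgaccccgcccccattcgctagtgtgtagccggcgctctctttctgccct
Fas: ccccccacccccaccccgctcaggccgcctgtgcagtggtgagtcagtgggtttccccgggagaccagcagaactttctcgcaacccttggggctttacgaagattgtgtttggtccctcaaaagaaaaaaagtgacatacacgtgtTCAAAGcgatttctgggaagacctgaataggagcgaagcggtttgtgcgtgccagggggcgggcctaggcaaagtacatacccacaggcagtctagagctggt
Cdkn1a: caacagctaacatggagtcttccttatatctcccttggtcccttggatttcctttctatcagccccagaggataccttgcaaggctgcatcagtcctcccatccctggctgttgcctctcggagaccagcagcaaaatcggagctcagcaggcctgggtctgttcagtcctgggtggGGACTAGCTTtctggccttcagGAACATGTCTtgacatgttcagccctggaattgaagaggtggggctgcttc
The Msgn1 window held 2 TCF/LEF cores, which begin 202 and 143 bases before the start, and an RBPJ core at 114 bases. The Tbx6 and Emcn windows held none of the searched letters, and Kdr held an RBPJ core at 129 bases. Fas held a TCF/LEF core at 103 bases and no p53 decamer, and Cdkn1a held 2 p53 decamers at 73 and 51 bases, separated by 12 bases. In the same window of 32851 mouse promoters, the TCF/LEF core was found in 13.8%, the RBPJ core in 5.42%, the T-box element in 11.8%, the GATA core in 9.99% and a p53 site of 2 decamers in 0.0639%. Of the 10 presomitic mesoderm genes with an entry, 2 held a TCF/LEF core and 3 an RBPJ core, and of 21 p53 targets with an entry 1 held a p53 site. These matches describe letters in a short window and not binding.

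Across all genes, 3825 of 18901 tested differed between WT-mCherry cells beside p53KO and beside WT cells (20.2%), of which 1937 (10.2%) rose and 1888 (9.99%) fell beside p53KO cells. Most changes were small, with a median absolute log2 fold change of 0.316 among the called genes, and 307 genes changed by at least 1 on the log2 scale, 177 up and 130 down. Without the replicate block, 1122 genes (5.94%) were called, 645 (3.41%) up and 477 (2.52%) down, and all of them were also called with it. In 2154 genes (11.4%) all 3 libraries beside p53KO cells lay above all 3 beside WT cells, and in 2064 (10.9%) below. After subtraction of emiRFP RNA, 3413 genes (18.1%) were called with H2bc14, 1704 (9.01%) up and 1709 (9.04%) down. With H2bc21 2880 (15.2%) were called, 1393 (7.35%) up and 1487 (7.84%) down. Fewer cells of a type and less RNA per cell cannot be told apart in these bulk libraries.

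Where average log2 CPM reached 1 and the sign was shared by the 3 pairs, the largest rises were Ptgds, a prostaglandin D synthase, the presomitic factor Msgn1 and Bhlhe41, a circadian and stress-responsive repressor. Ptgds read 171, 309.8 and 172 beside p53KO cells and 59.9, 62.3 and 48.1 beside WT cells, a log2 fold change of 1.91 ± 0.18 (adjusted p = 4.2e-06). Bhlhe41 read 379.7, 507 and 418 against 117, 160.1 and 106, 1.78 ± 0.09 on the log2 scale (adjusted p = 1.9e-08). Neither gene's groups overlapped, and neither lost its call after subtraction. Among the other 12 largest rises were the retinoic acid synthesis gene Aldh1a2, Tbx6, Mesp1, Fgf3, the neuropeptide receptor Npbwr1 (1.41), the incretin receptor Gipr (1.39), the unnamed gene Gm45847 (1.37) and Evx1os (1.33). Evx1os overlaps Evx1 on the opposite strand, and since the strand setting of the counting is not given in the sources used here, reads of the pair cannot be told apart.

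Under the same limit the largest falls were Fmod, a collagen-binding proteoglycan, the unnamed gene 3830417A13Rik (-1.77), Kdr and Lefty1. Fmod read 58.4, 41.8 and 100.1 beside p53KO cells against 253, 111 and 362 beside WT cells, which fell by 1.83 on the log2 scale (SE 0.15, adjusted p = 1.1e-06). The fatty acid receptor Cd36 went from 1206, 691 and 1448 beside WT cells to 349, 357 and 611 beside p53KO cells, and the IGF-binding protein gene Igfbp5 from 22058, 15096 and 27463 to 8263, 6996 and 11758. Their log2 fold changes were -1.34 and -1.25 (adjusted p = 1.3e-04 and 3.5e-08), and in both genes the groups stayed apart although replicate 3 was the highest in each group. Wt1 (-1.25), Krt42 (-1.27), Tchh (-1.25), AU015836 (-1.16) and Lefty2 (-1.15) were also among the 12 largest falls. All 24 genes of the largest rises and falls kept their call without the block, with DESeq2 and with each replicate left out in turn. They also kept their direction. A sign shared by the 3 pairs was part of their choice, so the kept direction says nothing about stability. Subtraction with H2bc14 left Msgn1 at 1.62 and Fgf3 at 1.25, both still called. Subtraction with H2bc21 ended the calls of Msgn1 and Fgf3 and took away that of the marker H2bc14, which is itself among the 12 largest rises.

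Presomitic mesoderm genes rose together. All 11 members of the list were tested and all 11 rose beside p53KO cells, with a median log2 fold change of 0.97 against -0.0075 over all tested genes, and in all 11 the groups did not overlap. All 11 were also called without the block and without each replicate, all 11 after the H2bc14 subtraction, and 9 after the H2bc21 subtraction. The summed level of the 11 genes was 38515 to 45102 beside p53KO cells, 19168 to 24777 beside WT cells, 73890.0 to 85755 in p53KO-emiRFP and 12516 to 16063 in WT-emiRFP cells.

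Msgn1, which drives presomitic differentiation, read 437, 594 and 479.7 beside p53KO cells and 205, 109.7 and 104 beside WT cells. The fit gave 1.86 ± 0.19 on the log2 scale (adjusted p = 7.3e-06). The p53KO-emiRFP cells of the same gastruloids read 1623, 1669.7 and 1794, above every WT-mCherry library, and the change of Msgn1 was 1.62 (adjusted p = 1.1e-04) after the H2bc14 subtraction and 0.87 (adjusted p = 0.23) after the H2bc21 subtraction. Tbx6, the T-box factor that commits cells to paraxial mesoderm, read 1810.1, 2986 and 2085 against 879, 706 and 749 (1.54 ± 0.14, adjusted p = 2.2e-06), and kept its call after the H2bc21 subtraction at 0.90 (adjusted p = 0.034). Mesp1, a factor of early and segmenting mesoderm, read 155, 246 and 175 against 68.3, 75.1 and 62.0 (1.48 ± 0.16). Its level in p53KO-emiRFP cells was 182, 283 and 267, close to that of the WT-mCherry cells beside them, and it stayed at 1.36 after the same subtraction. In all 3 genes replicate 2 was the highest beside p53KO cells and no library beside WT cells reached the lowest of them.

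**Figure D2:**
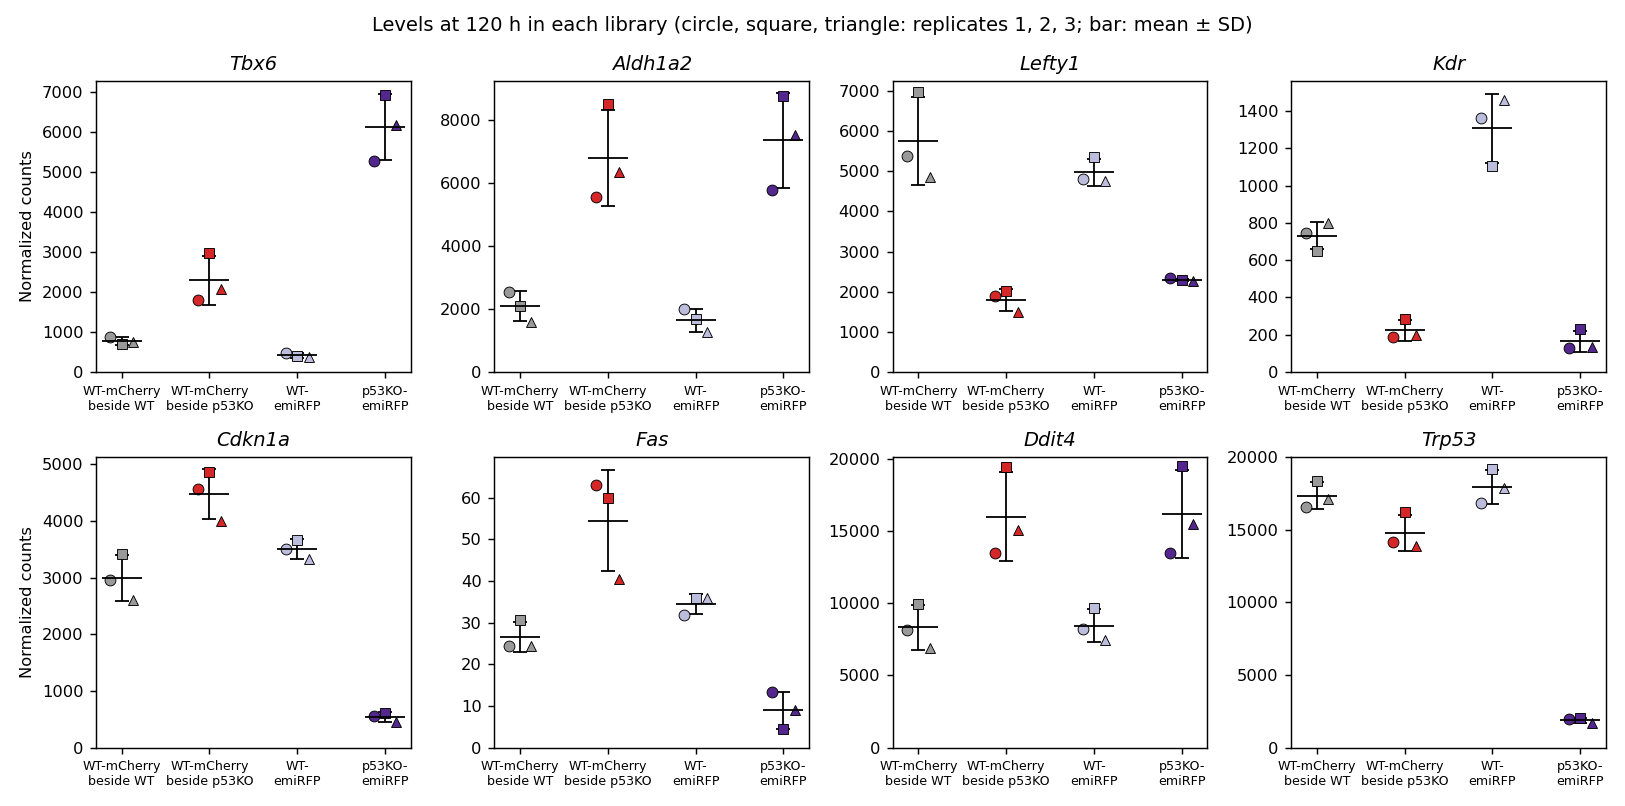
Normalised read counts (y axis) of 8 genes in the 4 populations of 120 h, with each point a library and bars the mean ± SD of 3. Tbx6 and Aldh1a2 are higher in WT-mCherry cells beside p53KO than beside WT cells, Lefty1 and Kdr are lower, and Cdkn1a and Fas are higher beside p53KO cells but lowest in the p53KO-emiRFP cells.

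Genes of the Notch pathway, whose oscillating activity times segmentation, rose in part. Of 18 tested members 11 rose and 1 fell (9 rises called without the block, 10 after the H2bc14 subtraction and 9 after the H2bc21 subtraction), with a median log2 fold change of 0.29. The rise covered the ligand genes Dll1 and Dll3, the glycosyltransferase Lfng that modifies Notch receptors, and the effectors Hes7, Hes5 and Nrarp. Dll1, Dll3, Lfng and Hes7 are also members of the presomitic mesoderm list, so the counts of the lists are not separate results. Hes7, the repressor at the core of the segmentation clock, read 1056, 1172 and 1095 beside p53KO cells and 519, 385 and 461 beside WT cells (1.28 ± 0.11, adjusted p = 1.9e-06). Dll1, the ligand of the presomitic mesoderm, read 13175, 16057 and 15781 against 8355, 6262 and 7148 (1.05 ± 0.10, adjusted p = 4.6e-06). Neither gene's libraries overlapped between the groups. Dll3 changed by 0.88, Lfng by 0.93, Hes5 by 1.10 and Nrarp by 0.87 on the log2 scale. After the H2bc14 subtraction the change was 1.17 for Hes7, 0.95 for Dll1 and 0.78 for Nrarp, and after the H2bc21 subtraction 0.90, 0.70 and 0.57 (adjusted p = 0.0016, 0.0043 and 0.0095). Of the receptor genes, Notch1 rose by 0.65 (adjusted p = 4.0e-05, 0.0045 without the block). The receptor genes Notch2, Notch3 and Notch4 did not pass the test, with log2 fold changes of 0.08, 0.09 and -0.10, and Rbpj, the DNA-binding partner of Notch, fell by 0.24 (adjusted p = 0.0012, 0.17 without the block, 0.0041 after the H2bc14 and 0.059 after the H2bc21 subtraction).

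The Wnt pathway moved at the level of ligands and of its feedback targets. Among 16 tested ligand genes 8 rose and 2 fell (4 and 1 without the block), and 4, 6 and 6 rose without replicates 1, 2 and 3. Wnt3a, the ligand of the tail bud, read 1012, 1510.2 and 994 beside p53KO cells and 546, 407 and 435 beside WT cells (1.32 ± 0.13, adjusted p = 7.3e-06). It was at 1.12 (adjusted p = 2.0e-04) after the H2bc14 subtraction and 0.53 (adjusted p = 0.39) after the H2bc21 subtraction. Wnt11, a ligand of mesoderm and endoderm, read 137, 149.8 and 91.1 against 37.4, 86.0 and 32.6 (1.30 ± 0.20, adjusted p = 3.2e-04). Wnt11 was lower in the p53KO-emiRFP cells than beside them, at 63.4, 57.1 and 54.2, and Wnt6 also rose, by 1.14. Wnt7b fell, from 568, 899 and 736 beside WT cells to 426, 424 and 473 (-0.72, adjusted p = 2.7e-04).

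Of 18 Wnt targets and feedback genes 11 rose and 1 fell (9 rises called without the block, 10 after the H2bc14 subtraction and 7 after the H2bc21 subtraction), with a median log2 fold change of 0.55. Axin2, a feedback inhibitor that reads out canonical Wnt activity in most tissues, read 6663, 6869.9 and 6382 beside p53KO cells and 4397, 4105 and 4241 beside WT cells, which is 0.64 ± 0.04 on the log2 scale (adjusted p = 1.8e-07). The spread within each group was small next to this difference. Sp5, a direct target that restrains the pathway, read 1757, 1967 and 1426 against 828, 861 and 665 (1.13 ± 0.08, adjusted p = 2.7e-07), and the secreted inhibitor Dkk1 read 120.0, 163 and 115 against 59.9, 70.2 and 35.9 (1.28 ± 0.20, adjusted p = 3.2e-04). Dkk1 was 371, 409 and 390.4 in p53KO-emiRFP cells, and its change was 1.09 (adjusted p = 0.0021) after the H2bc14 subtraction and 0.58 (adjusted p = 0.29) after the H2bc21 subtraction. Axin2 was at 0.62 and 0.57 after these subtractions and Sp5 at 1.07 and 0.93, all called. Apcdd1 (0.90) and Rnf43 (0.77), membrane inhibitors of the pathway, rose as well. Ccnd1, Znrf3, Sfrp1, Sfrp2, Wif1 and Dkk4 did not pass the test.

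FGF ligand genes split. Of 13 FGF ligand and receptor genes 7 rose and 2 fell (4 and 2 without the block). After the H2bc14 subtraction 7 rose and 2 fell, and after the H2bc21 subtraction 2 rose and 2 fell. Those that fell were the ligand gene Fgf5 (-1.20, adjusted p = 8.6e-04) and the receptor gene Fgfr2 (-0.34, adjusted p = 6.0e-04), whose annotated span holds Nkx1-2 on the same strand, so that reads may be shared between them. Fgf3 read 481, 698 and 509 beside p53KO cells and 257, 199.7 and 169 beside WT cells (1.43 ± 0.14, adjusted p = 4.9e-06, 6.8e-05 after the H2bc14 and 0.057 after the H2bc21 subtraction). Fgf8, the ligand of the posterior gradient, read 2118, 2746 and 1760.1 against 1323, 1176 and 1034 (0.90 ± 0.10, adjusted p = 1.4e-05), and its change was 0.80 (adjusted p = 1.2e-04) after the H2bc14 subtraction and 0.57 (adjusted p = 0.035) after the H2bc21 subtraction. Both were higher in p53KO-emiRFP cells than in any WT-mCherry library, at 4123, 4831 and 3890.5 for Fgf8. Fgf9 rose by 0.75 on the log2 scale (adjusted p = 0.0016, 0.0076 after the H2bc14 and 0.23 after the H2bc21 subtraction) and the receptor Fgfr4 by 0.93 (adjusted p = 2.6e-04, 0.094 without the block). Among 10 feedback genes and targets of ERK, the kinase downstream of FGF, 0 rose and 4 fell by edgeR (1 fall called without the block), and 1, 2 and 2 fell without replicates 1, 2 and 3. Dusp6, the ERK phosphatase, read 6708, 7162 and 7045 against 7983, 7403 and 8008 (-0.16, adjusted p = 0.041, 0.18 without the block), while Spry4 at 0.06 and Etv4 at 0.04 did not pass the test.

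Genes of the caudal epiblast and neuromesodermal progenitors rose in 15 of 18 tested cases and fell in 0 by edgeR (9 rises called without the block), with a median log2 fold change of 0.51. T, the brachyury gene of the tail bud, read 4049, 4755 and 3510.2 beside p53KO cells and 2420.4, 1972 and 2203 beside WT cells (0.89 ± 0.09, adjusted p = 1.0e-05). Evx1, another posterior regulator, read 944, 1115 and 865 against 485, 312 and 474 (1.20 ± 0.14), and Cdx2, which patterns the posterior axis, 9332, 8818 and 7601 against 5949, 5038 and 5585 (0.64 ± 0.07, adjusted p = 8.1e-06). No library overlapped between groups in these genes. After the H2bc14 subtraction 14 of the 18 were called as risen, with a median of 0.46, and after the H2bc21 subtraction 6, with a median of 0.24. T was at 0.73 (adjusted p = 2.6e-04) after the H2bc14 subtraction and 0.30 (adjusted p = 0.44) after the H2bc21 subtraction, and its level in p53KO-emiRFP cells was 10686, 12077 and 10225. Cdx4 rose by 0.25 (adjusted p = 0.017, 0.5 without the block), overlapped between groups and stood at 0.12 (adjusted p = 0.33) after the H2bc14 subtraction and -0.21 (adjusted p = 0.37) after the H2bc21 subtraction.

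**Figure D3:**
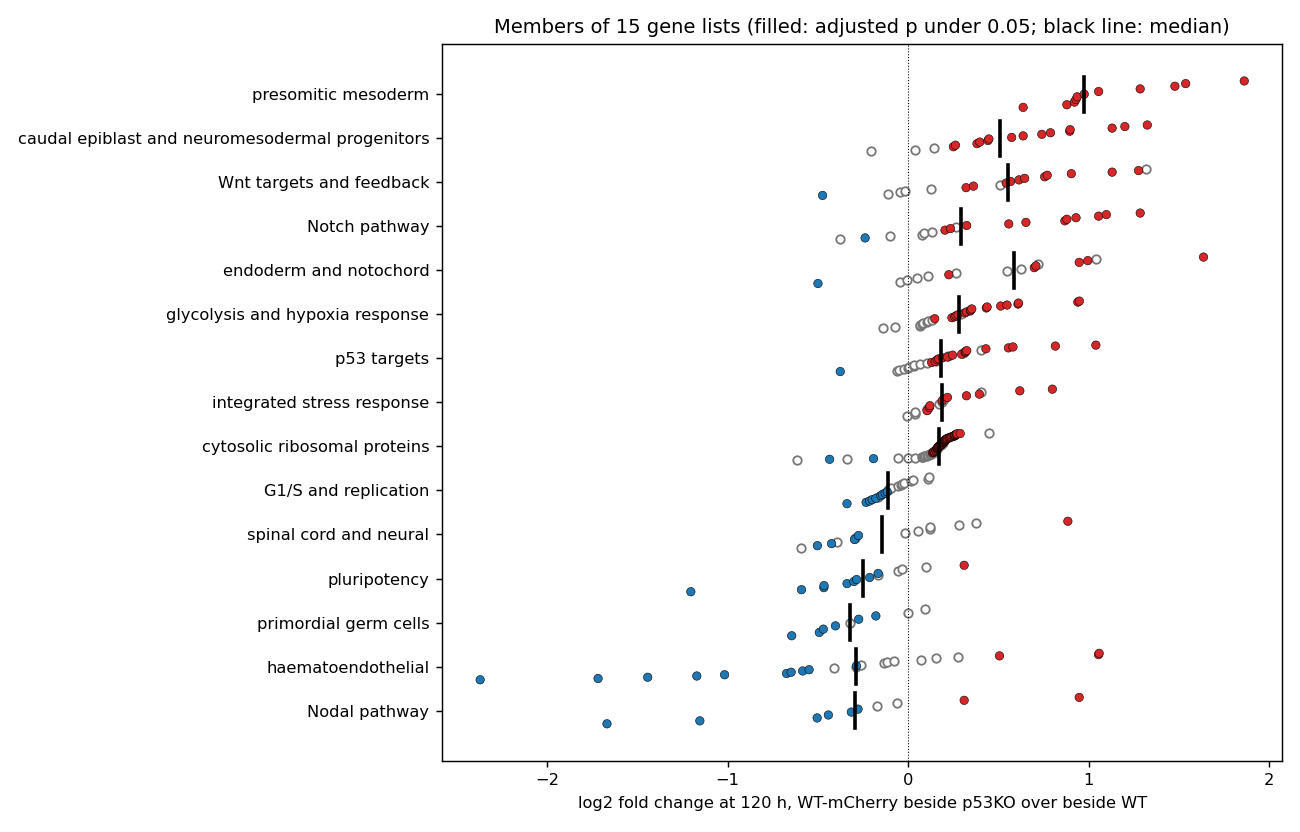
Log2 fold change beside p53KO over beside WT cells (x axis) of the members of 15 gene lists at 120 h. Filled points are genes with an adjusted p below 0.05 and black lines are list medians, 0.97 for presomitic mesoderm and -0.29 for the haematoendothelial list.

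Genes of segmentation and somites rose more often than they fell. Of 16 tested members 7 rose and 2 fell (4 and 1 without the block). The 2 falls of 16 are a share near the 9.99% over all genes. Without replicates 1, 2 and 3, 9, 7 and 5 rose and 1, 3 and 1 fell. After the H2bc14 subtraction 7 rose and 1 fell, and after the H2bc21 subtraction 6 rose and 1 fell. Ripply2, which acts at the forming somite border, read 337, 445 and 398 beside p53KO cells and 212, 135 and 144 beside WT cells (1.27 ± 0.18, adjusted p = 1.4e-04), and Mesp2 read 766, 1048 and 982 against 497, 526 and 429.8 (0.94 ± 0.10, adjusted p = 1.0e-05). Their levels beside p53KO cells overlapped those of the p53KO-emiRFP cells, which read 829.8, 1129.8 and 1071 for Mesp2, and after the H2bc21 subtraction the changes were 1.26 and 0.89. Ripply1, a relative of Ripply2, was at 0.21 (adjusted p = 0.29) and did not pass the test. The somite factors Foxc2 and Uncx rose by 0.57 and 0.58 (adjusted p = 0.0065 and 0.005), and were not called without the block (0.053 and 0.19). Pax1, a sclerotome gene of later somites, fell from 102, 68.2 and 231 to 41.0, 29.2 and 60.4 (-1.56 ± 0.19, adjusted p = 3.5e-05, 0.038 without the block). Meox1, Tcf15, Pax3, Myf5 and Foxc1, genes of formed somites or their derivatives, did not pass the test and lay between -0.02 and 0.48.

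The retinoic acid genes moved in both directions. Over the list of 14 tested genes 4 rose and 4 fell (2 and 2 without the block), with 4 and 4 after the H2bc14 subtraction and 2 and 4 after the H2bc21 subtraction. Without replicates 1, 2 and 3, 4, 3 and 3 rose and 2, 3 and 2 fell. Aldh1a2, the synthesis enzyme of trunk mesoderm (chr9:71215789-71296243, plus strand, GRCm38), read 5545, 8488 and 6327 beside p53KO cells and 2549, 2099.7 and 1596 beside WT cells (1.70 ± 0.16, adjusted p = 3.9e-06). Crabp1, which binds retinoic acid in the cytoplasm, read 3360.5, 3617 and 2865 against 1603, 1413 and 1148 (1.24 ± 0.08, adjusted p = 1.3e-07). In both genes the lowest library beside p53KO cells was above the highest beside WT cells, and both kept their size after the H2bc21 subtraction. Rarb, a receptor gene that retinoic acid induces, read 154, 199 and 166 against 223, 247 and 205 (-0.38, adjusted p = 0.013, 0.16 without the block), and the retinaldehyde reductase Dhrs3, also induced by it, fell by 0.49 (adjusted p = 3.8e-04). Cyp26a1, a degrading enzyme of the tail bud that retinoic acid also induces, rose by 0.40 (adjusted p = 0.0035, 0.2 without the block) and was at 0.30 (adjusted p = 0.036) after the H2bc14 subtraction and 0.08 (adjusted p = 0.74) after the H2bc21 subtraction. Cyp26b1, another such enzyme, was at -0.65 (adjusted p = 0.0034).

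In the Nodal pathway, which patterns the early axis and the endoderm, 6 of 10 tested genes fell and 2 rose (3 and 2 without the block, 6 and 2 after the H2bc14 and 4 and 2 after the H2bc21 subtraction). Lefty1, a secreted Nodal inhibitor that Nodal itself induces (chr1:180935022-180938400, plus strand, GRCm38), read 1891, 2006 and 1498 beside p53KO cells and 5389, 6971 and 4866 beside WT cells, a log2 fold change of -1.67 ± 0.08 with the smallest adjusted p of the named genes in this pathway (4.8e-09). Lefty2, its close paralogue, read 1187, 1494 and 1041 against 2761, 3007 and 2495 (-1.15 ± 0.08, adjusted p = 3.8e-07). The Lefty genes are similar in sequence and reads may be shared between them. The p53KO-emiRFP cells read 2329, 2284 and 2273 for Lefty1, above all 3 WT-mCherry libraries from the same gastruloids and below all WT+WT libraries. Nodal read 1683, 2005 and 1593 against 1978, 2646 and 1978 (-0.32, adjusted p = 0.001, 0.17 without the block), and was at -0.26 (adjusted p = 0.0058) after the H2bc14 subtraction and -0.17 (adjusted p = 0.082) after the H2bc21 subtraction. Cer1, another secreted Nodal antagonist, rose instead, from 554, 390.5 and 413 to 693, 845 and 1105 (0.95 ± 0.17, adjusted p = 0.0012), and the coreceptor Tdgf1 rose by 0.31 (adjusted p = 2.3e-04), and by 0.38 and 0.51 after these subtractions.

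BMP genes were mixed, with 6 of 17 up and 4 down (2 and 2 without the block), and 3, 4 and 4 up and 3, 4 and 3 down without replicates 1, 2 and 3. Msx1 read 1955, 2092 and 1398 beside p53KO cells and 1169.9, 1165 and 926 beside WT cells (0.73 ± 0.06, adjusted p = 6.6e-07), and the inhibitory Smad7 read 773, 761 and 807 against 1129, 1441 and 1368 (-0.74 ± 0.08, adjusted p = 2.0e-05). The BMP targets Id3 and Id2 went apart, at 0.55 and -0.45. The ligand genes Bmp2 and Bmp4 did not pass the test, at -0.03 and -0.28.

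Haematoendothelial genes fell more often than they rose. Of 22 tested members 10 fell and 3 rose (5 and 2 without the block), with a median log2 fold change of -0.29, and 8, 10 and 8 fell without replicates 1, 2 and 3. The embryonic globin genes Hba-x, Hbb-bh1 and Hbb-y were too low to be tested. Kdr, the VEGF receptor of blood and vessel progenitors, read 186, 286 and 197 beside p53KO cells and 748, 651 and 798 beside WT cells (-1.72 ± 0.17, adjusted p = 7.3e-06). Emcn, a sialomucin of endothelium, read 4.74, 5.52 and 1.8 against 22.5, 21.7 and 21.2 (-2.37 ± 0.36, adjusted p = 2.5e-04), a large change at a low level. Tal1, a master regulator of blood, read 36.3, 40.2 and 29.8 against 111, 94.9 and 85.6 (-1.44 ± 0.22, adjusted p = 3.0e-04). In these 3 genes every library beside p53KO cells was below every library beside WT cells, and the calls held after both subtractions. Sox18 fell by 1.17 (adjusted p = 0.019, 0.069 without the block), and Pecam1 by 0.29 (adjusted p = 8.3e-04, 0.11 without the block). Pecam1 was at -0.22 (adjusted p = 0.011) after the H2bc14 subtraction and -0.08 (adjusted p = 0.47) after the H2bc21 subtraction.

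The list did not move as a unit. Lmo2, a partner of Tal1, rose from 753, 503 and 649.9 to 1274, 1394 and 1269 (1.06 ± 0.11, adjusted p = 8.9e-06), Flt1, a decoy VEGF receptor, from 124, 212 and 94.6 to 280.2, 327 and 263 (1.05 ± 0.15, adjusted p = 1.2e-04), and Runx1 by 0.51 (adjusted p = 0.0046, 0.055 without the block). Erg, Tek, Tie1, Cdh5, Egfl7 and Plvap, genes of mature endothelium, did not pass the test, with log2 fold changes between -0.41 and 0.15.

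Endoderm and notochord genes rose in 6 of 16 tested cases and fell in 1, and 1 rise was called without the block. Spink1 read 214, 192 and 109 beside p53KO cells and 57.1, 88.0 and 27.7 beside WT cells (1.64 ± 0.22, adjusted p = 8.8e-05, 0.057 without the block). Sox17, the endoderm determinant, read 268, 378 and 192 against 125, 223 and 82.4 (0.99 ± 0.12, adjusted p = 2.4e-05, 0.13 without the block). Within each pair of replicates both genes were higher beside p53KO cells, whereas for Sox17 replicate 3 beside p53KO cells, at the bottom of its group, was below replicate 2 beside WT cells. Both were lower in p53KO-emiRFP cells, where Sox17 read 56.2, 84.3 and 44.2. Foxa2 behaved likewise, at 0.71 ± 0.15 (adjusted p = 0.0036, 0.35 without the block).

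Pluripotency genes fell in 9 of 14 tested cases and rose in 1 (4 and 1 without the block), and without replicate 2 in 5. L1td1 read 8798, 7909 and 8866 beside p53KO cells and 11872, 13577 and 13066 beside WT cells (-0.59 ± 0.05, adjusted p = 3.2e-06), and Zfp42, a marker of the naive state, 8264, 7182 and 7965 against 10032, 11611 and 10718 (-0.47 ± 0.06, adjusted p = 7.6e-05), or -0.40 after the H2bc14 and -0.28 after the H2bc21 subtraction. Fgf5, which marks the formative epiblast, fell by 1.20 (adjusted p = 8.6e-04). All 3 were lower still in p53KO-emiRFP cells relative to WT-emiRFP cells, and 7 of the 14 were called as fallen after the H2bc14 subtraction and 4 after the H2bc21 subtraction. Among 9 primordial germ cell genes 6 fell and 0 rose by edgeR (2 falls called without the block), with 3, 3 and 5 falls without replicates 1, 2 and 3. After the H2bc14 subtraction 4 fell and after the H2bc21 subtraction 2. Prdm1, a germ cell determinant, read 498, 443 and 583 against 709, 814 and 855 (-0.65 ± 0.09, adjusted p = 1.2e-04), and Tfap2c changed by -0.47 (adjusted p = 1.3e-04), or by -0.41 and -0.30 after the H2bc14 and H2bc21 subtractions.

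Among other lineages, of 14 spinal cord and neural genes 4 fell and 1 rose (1 fall called without the block), and 6, 2 and 3 fell without replicates 1, 2 and 3, with Sox1, an early neural gene, at 733, 631 and 545 against 894, 913 and 888 (-0.50 ± 0.08, adjusted p = 2.4e-04). Of 20 cardiac and lateral plate genes 2 rose and 2 fell (1 fall called without the block), which is close to the 10.2% and 9.99% over all genes. Without replicates 1, 2 and 3 the rises were 0, 2 and 0 and the falls 1, 2 and 1 by edgeR. Of 8 intermediate mesoderm genes 2 rose and 2 fell (1 and 1 without the block), with Lhx1, from the early kidney field, at 0.77 and Wt1, of its later derivatives, at -1.25. Of 10 neural crest and dorsal neural genes 3 rose and 2 fell (1 and 1 without the block, 3 and 2 after the H2bc14 and 1 and 3 after the H2bc21 subtraction). Of 35 Hox genes, which encode axial position and some of which overlap on 1 strand in the annotation, 10 rose and 2 fell (2 rises called without the block), 6, 4 and 11 rose without replicates 1, 2 and 3, and 6 rose and 2 fell after the H2bc14 subtraction and 3 and 2 after the H2bc21 subtraction. Hoxd1, an anterior member, read 778, 872 and 907 against 578, 463 and 501 (0.73 ± 0.12, adjusted p = 4.3e-04).

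The transcriptional targets of p53 rose beside p53KO cells in part. Of 30 tested targets 16 rose and 1 fell, with a median log2 fold change of 0.18, and 8 rose without the block. After subtraction of emiRFP RNA the count was 17 with H2bc14 and 20 with H2bc21, with medians of 0.22 and 0.32. The count depended on the replicates, with 8, 17 and 12 targets risen without replicates 1, 2 and 3, while the median over the list was then 0.16, 0.22 and 0.20. Between the emiRFP clones, 24 of the 30 were lower and 2 higher in p53KO cells, with a median of -1.13.

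Cdkn1a, which encodes the cell cycle inhibitor p21, read 4560.4, 4864 and 3996 beside p53KO cells and 2962, 3424 and 2613 beside WT cells (0.58 ± 0.05, adjusted p = 1.4e-06). Perp, an apoptosis effector, read 1058, 981 and 799 against 461, 699 and 466 (0.81 ± 0.12, adjusted p = 2.1e-04), and Bbc3, which encodes the BH3-only protein PUMA, read 2263, 2402 and 1844 against 1336, 1757 and 1352 (0.55 ± 0.07, adjusted p = 7.4e-05). The groups did not overlap in any of these 3 genes. Fas, the death receptor, read 63.2, 59.9 and 40.6 against 24.3, 30.6 and 24.5 (1.04 ± 0.23, adjusted p = 0.0047), and without replicate 1 its change was 0.87 (adjusted p = 0.061). Mdm2, the ubiquitin ligase that p53 induces against itself, rose by 0.25 (adjusted p = 0.0045, and 0.11 without replicate 1). Epha2 was the target that fell, by 0.38 (adjusted p = 0.0013). Bax, Rrm2b, Ak1, Rps27l, Sesn1, Aen and Xpc did not pass the test and lay between -0.06 and 0.03 on the log2 scale.

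Among other death genes, the Bcl2 family changed about as often as all genes. Of 15 Bcl2 family genes 2 rose and 2 fell (2 rises called without the block). This is 13.3% in each direction, close to the 10.2% and 9.99% over all genes. Without replicates 1, 2 and 3, 2, 3 and 2 rose and 2, 1 and 1 fell. Hrk, a BH3-only gene of neurons and stressed cells, read 156, 162 and 158 beside p53KO cells and 88.9, 111 and 84.8 beside WT cells (0.75 ± 0.12, adjusted p = 3.9e-04), and was 147, 159 and 165 in p53KO-emiRFP cells. Bmf fell by 0.24 (adjusted p = 0.0052, 0.06 without the block, with a change of -0.29 after the H2bc14 and -0.40 after the H2bc21 subtraction) and Bcl2l11 by 0.20 (adjusted p = 0.0079, 0.11 without the block). Bcl2, Bcl2l1, Mcl1, Bax and Bak1 did not pass the test, and Mcl1 had the largest difference of these at -0.09. Of 13 caspase and death receptor genes 4 rose and 1 fell (1 rise called without the block). Without replicates 1, 2 and 3, 1, 3 and 3 rose and 0, 0 and 1 fell by edgeR. Those that rose were the death receptor genes Fas, by 1.04 (adjusted p = 0.0047), and Tnfrsf10b, by 0.30 (adjusted p = 2.8e-04), Apaf1 of the apoptosome, by 0.17 (adjusted p = 0.0096), and the caspase gene Casp6, by 0.23 (adjusted p = 0.0096). The caspase inhibitor Xiap fell by 0.20 (adjusted p = 0.01), and Casp8 was at -0.26 (adjusted p = 0.12). Of these genes Fas was called without the block (adjusted p = 0.022). Of 7 CDK inhibitor genes 2 rose and 1 fell (1 rise called without the block).

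**Figure D4:**
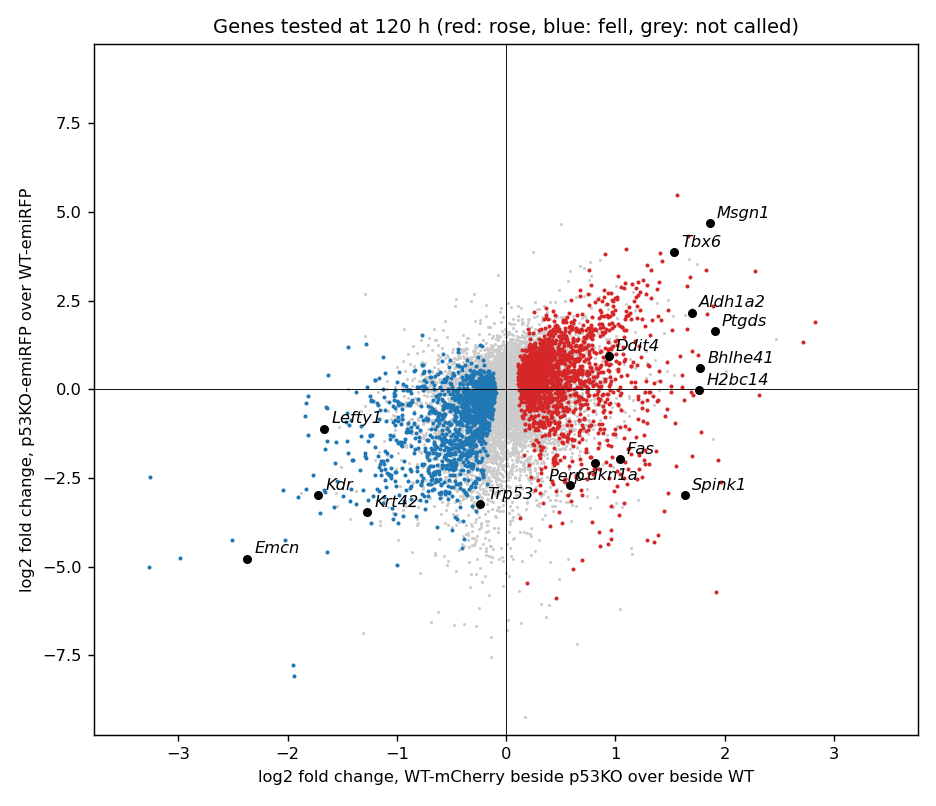
Each point is a gene tested at 120 h. The x axis is the log2 fold change in WT-mCherry cells beside p53KO over beside WT cells, and the y axis that of p53KO-emiRFP over WT-emiRFP cells. Red genes rose and blue genes fell beside p53KO cells. Msgn1 and Tbx6 lie at the upper right, Kdr at the lower left, and Cdkn1a, Perp and Fas at the lower right.

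Most genes that changed with the neighbour changed the same way with the genotype. The 3 libraries of p53KO-emiRFP and the 3 of WT-emiRFP cells share no library with the WT-mCherry comparison, but they come from the same gastruloids and their RNA is also in the WT-mCherry libraries. In that comparison 11653 genes (61.7%) differed, 6357 (33.6%) higher in p53KO-emiRFP cells and 5296 (28.0%) lower. Against the WT-mCherry cells beside them, p53KO-emiRFP cells differed in 10140 genes (53.6%), 5675 (30.0%) higher and 4465 (23.6%) lower. Of the genes that rose beside p53KO cells, 1122 (57.9%) were also higher in p53KO-emiRFP cells and 417 (21.5%) were lower. Of the genes that fell, 1226 (64.9%) were also lower and 215 (11.4%) higher. Seen from the genotype, 17.6% of the genes higher in p53KO-emiRFP cells rose beside them and 23.1% of the genes lower in them fell.

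Some risen genes were not high in the p53KO-emiRFP cells themselves. Bhlhe41 read 225, 318 and 241 in p53KO-emiRFP and 154, 197 and 166 in WT-emiRFP cells, below all libraries beside p53KO cells in the same replicate. Gm45847 rose from 85.2, 174 and 85.6 to 324, 311 and 238 (1.37, adjusted p = 6.6e-05) while p53KO-emiRFP cells read 45.0, 56.2 and 42.1 and WT-emiRFP cells 146, 154 and 175. Ddit4, an mTORC1 inhibitor induced by hypoxia and stress, was instead equally high in both populations of WT+p53KO gastruloids, at 13459, 19401 and 15082 in WT-mCherry and 13484, 19492 and 15502 in p53KO-emiRFP cells, and lower in both of WT+WT gastruloids, at 8159.6, 9930.2 and 6877 and 8244, 9649.8 and 7426. Its log2 fold changes were 0.94 by neighbour and 0.93 by genotype. Igfbp5 had the same arrangement with the opposite sign, -1.25 and -1.29.

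Ddit4 belongs to the glycolysis and hypoxia response genes, of which 18 of 28 rose and 0 fell by edgeR (13 rose without the block), with a median log2 fold change of 0.28. Of the 28, 25 were higher beside p53KO cells in all 3 pairs, as were 24.1% of all genes tested, 17, 18 and 16 rose without replicates 1, 2 and 3, and 17 and 18 rose after the H2bc14 and H2bc21 subtractions. Pfkfb3, a regulator of glycolytic flux, read 2961, 3436 and 3485 beside p53KO cells and 2386, 2218 and 1889 beside WT cells (0.61 ± 0.08, adjusted p = 7.3e-05), and P4ha2, a collagen prolyl hydroxylase, 1881, 2011 and 1819.6 against 1255, 1389.9 and 1113 (0.61 ± 0.08, adjusted p = 5.2e-05). Both genes' groups were apart. Adm, a vasoactive peptide gene, rose by 0.95 (adjusted p = 3.5e-04, 0.14 without the block). Car9, a strongly hypoxia-induced gene, was at -0.14 and did not pass the test, nor did Slc2a3 (-0.07), Gapdh (0.06) or Eno1 (0.06). Between the emiRFP clones, p53KO over WT, the same list had a median log2 fold change of -0.11.

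Integrated stress response genes rose in 9 of 17 cases and fell in 0 by edgeR, with 2 risen without the block and 4, 10 and 3 without replicates 1, 2 and 3. Ddit3, which encodes CHOP, read 872, 834 and 684 beside p53KO cells and 453, 549.6 and 380.0 beside WT cells (0.80 ± 0.08, adjusted p = 4.3e-06). Stc2, a secreted stress glycoprotein, read 2641, 2386 and 2528 against 1862, 1553 and 1522 (0.62 ± 0.05, adjusted p = 1.6e-06). These were apart in every library, while Chac1 and Nupr1 rose by 0.39 and 0.32 and were not called without the block (adjusted p = 0.073 and 0.069). Atf4, the transcription factor of the response, was at 0.19 (adjusted p = 0.011, 0.16 without the block), and Trib3 at 0.20 and Slc7a11 at -0.01 did not pass the test.

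The cytosolic ribosomal protein genes rose by a small step. Of 83 tested genes 52 rose and 2 fell, with a median log2 fold change of 0.17, and 72 were higher beside p53KO cells in all 3 pairs, against the 24.1% of all genes tested. The calls depended on the pairing and on replicate 1, with 2 risen and 1 fallen without the block and 13, 56 and 37 risen without replicates 1, 2 and 3. Rpl23 read 75850.1, 74901 and 67671 beside p53KO cells and 62485, 63992 and 55089 beside WT cells (0.27 ± 0.04, adjusted p = 1.2e-04, 0.051 without the block). Many of these genes have processed pseudogenes that can share reads.

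Growth and division genes changed by small steps. Of 21 G1/S and replication genes 9 (42.9%) fell, against 9.99% of all genes, and 0 rose by edgeR (3 falls called without the block). After the H2bc14 and H2bc21 subtractions 10 and 11 fell. Without replicates 1, 2 and 3, 5, 6 and 6 fell. Ccne1, which encodes cyclin E1, read 4567, 4515 and 4183 beside p53KO cells and 5487, 5950.2 and 5358 beside WT cells (-0.34 ± 0.05, adjusted p = 2.4e-04), and Cdc6, a replication licensing gene, 4202, 4383 and 4305 against 4932, 5225 and 5000.4 (-0.23 ± 0.04, adjusted p = 3.0e-04). The changes were small but the groups did not overlap. Of 21 mitosis genes 4 fell and 0 rose, and of 20 ribosome biogenesis genes 4 fell and 0 rose. Without the block edgeR called 0 genes of either list, with 4 of each below an unadjusted p of 0.05. Without replicates 1, 2 and 3, 0, 1 and 3 mitosis genes and 2, 4 and 2 ribosome biogenesis genes fell. Of 11 Myc network genes 1 rose and 1 fell, and without the block edgeR called 0, with 1 in each direction below an unadjusted p of 0.05. Of 11 tested mitochondrially encoded genes 3 fell and 0 rose by edgeR, and 3, 0 and 2 fell without replicates 1, 2 and 3. Without the block edgeR called 0, with 1 below an unadjusted p of 0.05, and DESeq2 with the block called 0. For example, mt-Nd1 read 79647, 46505 and 76912 against 92288, 73273 and 108294 (-0.46, adjusted p = 0.022, 0.29 without the block), with replicate 2 the lowest in both groups.

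Among the remaining lists, collagens split, with 13 of 39 up and 7 down (5 and 6 without the block), and 9, 5 and 10 up and 7, 8 and 5 down without replicates 1, 2 and 3. Col1a2, a fibrillar collagen, read 229.7, 247 and 292 beside p53KO cells and 513, 384 and 687 beside WT cells (-1.03 ± 0.14, adjusted p = 1.1e-04), with Col1a1 at -0.67, while the microfibrillar Col6a1 rose by 0.73 (adjusted p = 0.001). Imprinted growth genes fell in 7 of 18 cases and rose in 4 (3 and 1 without the block), with 2 rises without replicate 1, 2 after the H2bc14 subtraction and 1 after the H2bc21 subtraction. Grb10 was among the 4. Plagl1, a growth-restraining factor, read 3802, 2671 and 3579 against 5545, 4869.7 and 5871 (-0.70 ± 0.10, adjusted p = 1.4e-04), and Peg10, a retrotransposon-derived gene, 35580.1, 40680.5 and 39672 against 52556, 67526 and 54048 (-0.58 ± 0.07, adjusted p = 4.1e-05). Mest, another paternally expressed gene, fell by 0.63 (adjusted p = 0.0048) and was 1628, 1895 and 2045 in p53KO-emiRFP cells, far under both WT-mCherry groups. It was at -0.57 (adjusted p = 0.012) after the H2bc14 subtraction and -0.46 (adjusted p = 0.072) after the H2bc21 subtraction.

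Of 19 MHC class I and interferon genes 7 rose and 3 fell (1 rise called without the block), and 4, 7 and 6 rose and 1, 1 and 2 fell without replicates 1, 2 and 3, with B2m, the light chain of class I molecules, at 1166, 1077 and 967 against 786, 801 and 697 (0.49 ± 0.07, adjusted p = 1.1e-04). Of 14 YAP/TEAD factors and targets 4 fell and 0 rose by edgeR (2 falls called without the block). Of 28 cholesterol and fatty acid synthesis genes 5 rose and 3 fell, and of 11 cadherin and EMT genes 4 rose and 1 fell. Without the block edgeR called 0 genes of these 2 lists, with 6 and 4 below an unadjusted p of 0.05. Without replicates 1, 2 and 3, 4, 3 and 0 genes of the former and 4, 2 and 2 of the latter rose. In the same fits 0, 1 and 2 genes of the former and 1, 0 and 1 of the latter fell. Of 15 immediate-early and heat shock genes 1 rose and 4 fell (2 falls called without the block), and without replicate 2 the counts were 6 and 2. Where a direction of a list had 0 calls by edgeR, DESeq2 also called 0 in it, and 0 members were below an unadjusted p of 0.05 except 1 G1/S gene and 2 YAP/TEAD genes with higher levels beside p53KO cells.

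The difference of the presomitic mesoderm genes appeared between 96 and 120 h. At 96 h, when 3826 of 18356 genes (20.8%) differed by neighbour, 2139 (11.7%) upwards and 1687 (9.19%) downwards, 1 of the 11 presomitic mesoderm genes was higher and 4 were lower beside p53KO cells. Tbx6 was then at -0.08 on the log2 scale (adjusted p = 0.19), Msgn1 at -0.03 (adjusted p = 0.75) and Aldh1a2 at -0.08 (adjusted p = 0.44). The interaction of neighbour and time from 96 to 120 h passed the test for 1209 of 19420 genes (6.23%), upwards for 2.83% and downwards for 3.4%, and for all 11 presomitic mesoderm genes upwards. Tbx6 changed by 1.62 ± 0.15 between the times (adjusted p = 2.6e-07). The emiRFP share by H2bc14 also grew beside p53KO cells, from 1.39% to 3.49% at 96 h to 2.91% to 7.35% at 120 h. After the H2bc14 subtraction all 11 still changed upwards, and after the H2bc21 subtraction 5 did, with Tbx6 at 0.97 (adjusted p = 0.061). Ddit3, Perp and Bhlhe41 already differed at 96 h. Ddit3 was then at 0.78 (adjusted p = 3.9e-06), Perp at 0.71 (adjusted p = 3.4e-06) and Bhlhe41 at 1.56 (adjusted p = 1.0e-08), and the interaction to 120 h was 0.02 for Ddit3 (adjusted p = 0.96), 0.11 for Perp (adjusted p = 0.81) and 0.21 for Bhlhe41 (adjusted p = 0.54).

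At 144 h, when 7229 of 19391 genes (37.3%) differed, 2926 (15.1%) upwards and 4303 (22.2%) downwards, the emiRFP share by H2bc14 was 16.8%, 2.26% and 9.10% beside p53KO cells and 2.01%, 0.0919% and 1.59% beside WT cells. Tbx6 was at 1.60 (adjusted p = 2.3e-05) and Hes7 at 2.47 (adjusted p = 5.5e-05), and these genes were also high in p53KO-emiRFP cells. After the H2bc14 subtraction Tbx6 was at 0.84 (adjusted p = 0.022) and Hes7 at 0.25 (adjusted p = 0.81), and after the H2bc21 subtraction neither passed the test (0.05 and -0.31, adjusted p = 0.96 and 0.81). Aldh1a2 was lower beside p53KO cells, at -0.77 (adjusted p = 5.6e-05), and Crabp1 at -1.54 (adjusted p = 6.1e-08). These retinoic acid genes therefore had opposite signs at 120 and 144 h, also after both subtractions. The interaction from 120 to 144 h passed the test for 3678 of 19982 genes (18.4%), upwards for 6.72% and downwards for 11.7%. Kdr at -1.28, Lefty2 at -1.15, Perp at 1.01 and Cdkn1a at 0.58 kept the sign they had at 120 h, each past the threshold at 144 h with and without the subtractions.

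**Figure D5:**
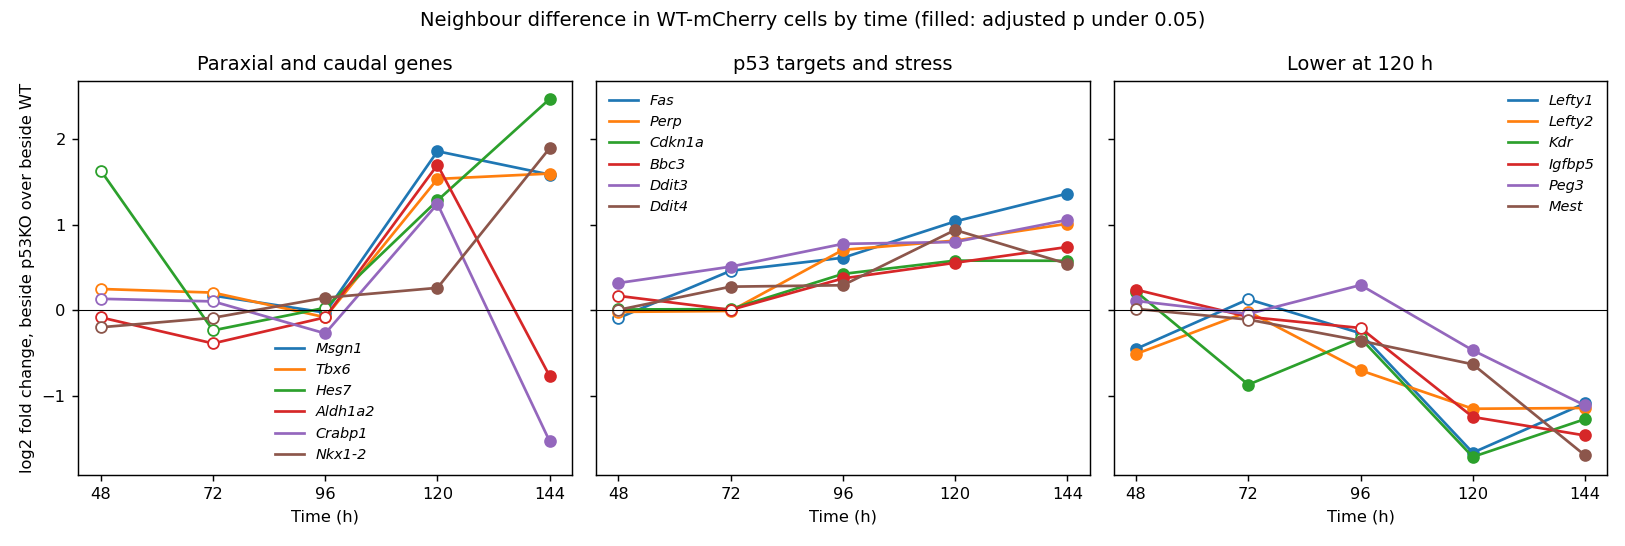
Log2 fold change in WT-mCherry cells beside p53KO over beside WT cells (y axis) at 48, 72, 96, 120 and 144 h (x axis), for 18 genes in 3 panels. Posterior and presomitic genes such as Tbx6 sit near 0 at 96 h and at 1.54 at 120 h, the values of Tbx6 and Hes7 at 144 h shrink when emiRFP RNA is subtracted, p53 and stress genes such as Perp are above 0 from 96 h on, and Lefty1 goes from -0.27 at 96 h to -1.67 at 120 h.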

How the data were processed

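Poly(A) RNA of the sorted mCherry and emiRFP populations was sequenced. The authors trimmed reads with Trim Galore 0.6.7, aligned them to GRCm38.p6 with STAR 2.7.11b and a Gencode annotation, and deposited raw counts of reads per gene symbol (55367 symbols, 69 libraries, 3695039036 counts in all). Every sample column was mapped to a library by its label. The strand column taken from STAR is not given in the sources used here.

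Median-of-ratios size factors came from all 69 libraries, and normalised read counts are deposited counts divided by them. The 12 libraries of 120 h were fitted with edgeR 4.0.16 (quasi-likelihood test, R 4.3.3, filterByExpr by group, population plus replicate block, 6 residual degrees of freedom), and Benjamini-Hochberg adjustment covered every tested gene (threshold 0.05). Time points were compared by an interaction of neighbour and time with the replicate within each time as a block. Counting error is small at these depths, with at least 48731535 counts per library of 120 h, and the 3 replicates limit the precision. No p-value under 0.1 is possible for a single gene in an exact test of 3 against 3, so only the fits across genes were used. At most 0.61% of genes with a mean of 50 counts or more had equal counts in a pair of replicates.

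The block was used because the study made each replicate in a separate experiment. Across 14106 genes, deviations of same-numbered WT-mCherry libraries from their group means correlated at 0.07, 0.63 and 0.58 for replicates 1, 2 and 3 at 120 h, and at 0.16 to 0.56 at the other times. These genes are not independent. The first pair is weak, so values without the block are given where a call changes.

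The emiRFP share of a WT-mCherry library is the level of a marker, less its mean in WT-mCherry stem cells, over that in the emiRFP cells of the same gastruloids and replicate. That share of their profile was subtracted from the counts, at 120 h as planned and at the other times by a choice made after seeing the data. Genes named are the 12 largest rises and 12 largest falls past the threshold whose average log2 CPM reached 1 and whose sign was shared by the 3 pairs, up to 4 rises and 4 falls of each of 40 gene lists with members that did not pass, Trp53, the markers, and the 3 genes with the smallest p of each interaction in each direction. Mdm2, Casp8 and other list members outside these were named after their values were seen. Some genes that the rule names are not reported here. The comparison, the lists and their members were chosen with earlier results of these data known. Promoters come from RefSeq (GRCm38.p6), where Perp has no entry.

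The fits were repeated with TMM normalization, without filtering on low counts, without the block, with only the 6 WT-mCherry libraries, with DESeq2 1.42.0, at a minimum change of 1 on the log2 scale, without each replicate and after both subtractions. On simulated counts the blocked fit called 100% of 200 genes changed 2-fold, 7.41% of all its calls were on genes left as they were, and it called 1 gene where nothing was changed. The unblocked fit called 97.5%, and 0 genes where nothing was changed. For the interactions 98.5% (96 to 120 h) and 96.5% (120 to 144 h) were called. The counts were drawn from the blocked fits with their replicate effects, and the changed genes had a mean of at least 100 counts. The simulation therefore cannot show whether blocked calls hold where the pairing of replicates is weak.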

Additional observations from a re-analysis of the deposited data

Results flagged for a closer look

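The difference between WT-mCherry cells beside p53KO and beside WT cells was not the same at consecutive times, by the interaction term of neighbour and time in edgeR's quasi-likelihood test with the replicate block. From 96 to 120 h it changed for 1209 of 19420 genes, upwards for 549 (2.83%) and downwards for 660 (3.4%). From 120 to 144 h it changed for 3678 of 19982 genes, upwards for 1343 (6.72%) and downwards for 2335 (11.7%). The emiRFP share of the libraries beside p53KO cells by H2bc14 moved with time too, from 1.39% to 3.49% at 96 h, 2.91% to 7.35% at 120 h and 2.26% to 16.8% at 144 h. After the subtraction with H2bc14 and with H2bc21, 1013 and 740 genes changed from 96 to 120 h and 4690 and 4204 from 120 to 144 h.

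The genes with the smallest p in each direction show what changed. From 96 to 120 h the difference rose for the Wnt feedback gene Axin2 by 0.79 ± 0.05 on the log2 scale (SE, adjusted p = 1.2e-09), from -0.14 to 0.64. It rose for Crabp1 by 1.52 ± 0.10 (adjusted p = 1.2e-09) and for Tnfrsf19, a receptor gene that Wnt signalling induces, by 0.70 ± 0.05 (adjusted p = 9.0e-09). All 3 were below 0 at 96 h and above 0 at 120 h. In the other direction, the difference of Lefty1 changed by -1.40 ± 0.09 (adjusted p = 1.2e-09), from -0.27 to -1.67. Peg3, an imprinted gene, changed by -0.76 ± 0.07 (adjusted p = 1.6e-07) and Igfbp3, an IGF-binding protein gene, by -0.84 ± 0.08 (adjusted p = 2.7e-07), both from above 0 to below 0. All 6 genes kept this direction and their call after both subtractions.

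From 120 to 144 h the difference of Nkx1-2, a gene of the neuromesodermal progenitors, rose by 1.64 ± 0.13 (adjusted p = 7.0e-08), from 0.26 to 1.90. Nkx1-2 lies within the annotated span of Fgfr2 on the same strand, and reads may be shared between them. The change of Nkx1-2 was 0.90 (adjusted p = 0.032) after the H2bc14 subtraction and after the H2bc21 subtraction 0.18 (adjusted p = 0.83). Col9a2, a cartilage collagen gene, rose by 1.01 ± 0.09 (adjusted p = 5.9e-07) and the myosin gene Myh13 by 1.36 ± 0.13 (adjusted p = 9.2e-07). Crabp1 changed by -2.78 ± 0.13 (adjusted p = 6.6e-12), from 1.24 at 120 h to -1.54 at 144 h. The actin-binding thymosin gene Tmsb4x changed by -1.12 ± 0.08 (adjusted p = 9.1e-09) and the axon guidance gene Slit1 by -1.95 ± 0.14 (adjusted p = 1.0e-08). These last 5 genes kept their direction and call after both subtractions.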

How the results depend on the processing

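The number of called genes rested on the pairing of replicates. Of 3825 genes called by neighbour at 120 h (1937 up, 1888 down), 1122 (645 up, 477 down) were called with no replicate block, 531 (329 up, 202 down) with only the 6 WT-mCherry libraries and no block, and 307 (177 up, 130 down) at a change of at least 1 on the log2 scale. With only the 6 WT-mCherry libraries and the block kept, 3042 (1596 up, 1446 down) were called. Leaving out a replicate gave 2196 to 2502 genes (1155 to 1257 up, 939 to 1347 down). In an alternative chosen after seeing the data, the fit without the block gave 140, 609 and 385 genes without replicates 1, 2 and 3 (90, 411 and 204 up, 50, 198 and 181 down), so replicate 1 mattered most there. TMM normalization gave 3867 (2056 up, 1811 down), DESeq2 3319, and the H2bc14 and H2bc21 subtractions 3413 and 2880. The fit without the low-count filter (4055 genes) used a trended spread in place of each gene's own, and its calls say nothing about stability. For the change of the difference from 96 to 120 h, the 1209 genes became 161 without the block (92 up, 69 down) and 486 to 905 without a replicate (250 to 466 up, 222 to 439 down). After the subtractions, added after seeing the data, they were 1013 with H2bc14 and 740 with H2bc21 (278 up, 462 down). From 120 to 144 h, the 3678 genes became 1254 without the block (360 up, 894 down) and 1506 to 2680 without a replicate (484 to 915 up, 1022 to 1765 down), against 4690 and 4204 after the subtractions. Fits without a replicate hold fewer samples. Other causes were not tested.

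Of 716 named genes and list members, 221 lost the call without the replicate block and 0 reversed. Both fits hold the same libraries and give nearly equal log2 fold changes, so the lack of reversals says nothing about stability. With TMM normalization 7 lost it, with DESeq2 22 of 697, without replicates 1, 2 and 3 121, 83 and 93, and after the H2bc14 and H2bc21 subtractions 30 and 86. Called genes that changed sign after the H2bc14 and H2bc21 subtractions were the markers H2bc14 (-0.028 and -0.0040) and H2bc7 (-0.15 and -0.0086) and the emiRFP-rich gene Grb10 (-0.74 and -11.99, the latter with counts near 0 left beside p53KO cells). After the H2bc21 subtraction alone they were H2bc21 (-0.048), Cdx4 (-0.21), Hoxc8 (-0.040) and Col12a1 (-0.058). Fosb, an immediate early gene, was at 0.017 with DESeq2 and between -2.47 and 1.42 without a replicate. A marker is assumed to track all emiRFP RNA, and 3 replicates, not depth, limit what these libraries can show.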
